A study of Homo sapiens with 52 samples.

Results

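The data described here are the soma libraries of an experiment in which TDP-43 was knocked down in i3Neurons, human neurons made by doxycycline-induced differentiation of the WTC11 induced pluripotent stem cell line. The comparison holds 9 of the 52 libraries of the series. They were chosen by their labels: 4 soma libraries labelled TDP43-knockdown (samples 1, 2, 3 and 4) and 5 soma libraries of the same experiment labelled nontargeting-sgRNA (samples 1, 2, 4, 5 and 6). Soma sample 5 of the knockdown held 541 counts and was not used. Both groups carried a transduced sgRNA and were selected for it as stem cells, were replated on day 3 of doxycycline onto porous inserts with 1 µm openings, which let neurites but not cell bodies through, and were harvested on day 17. The sgRNA sequences, the repressor protein and the number of clones were not found in the sources used here, and the labels do not say whether numbered samples are separate cultures, so p-values measure the spread between these samples. For contrast, 10 neurite libraries of the same experiment (5 TDP43-knockdown and 5 nontargeting-sgRNA) and 12 soma libraries of an hnRNPA1 experiment (6 hnRNPA1-knockdown and 6 nontargeting-sgRNA) were used.

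TDP-43, encoded by TARDBP, is a mostly nuclear RNA-binding protein that prefers UG-rich RNA. It keeps unannotated ("cryptic") exons out of many human transcripts, regulates splicing and polyadenylation, and lowers its own mRNA through binding in the 3′ UTR. In motor neuron disease (ALS) and frontotemporal dementia it is lost from the nucleus of affected neurons, and cryptic exons that cut short STMN2 or destabilise UNC13A mRNA are the best known results. The counts used here are per gene, so they hold the sum over a gene's transcripts and do not show cryptic exons themselves.

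Promoter sequences are shown for TARDBP, because sgRNAs for repression are usually placed near a gene's start, and for PTPRT, because PTPRT and its divergent transcript PTPRT-DT, which start 159 bases apart, both fell. The TARDBP stretch lies at chr1:11012404-11012703 on the + strand and the PTPRT stretch at chr20:43189857-43190156 on the - strand (RefSeq, GRCh38.p14). Each has 250 bases before the annotated start in lower case and 50 bases from it on in capitals.
TARDBP promoter: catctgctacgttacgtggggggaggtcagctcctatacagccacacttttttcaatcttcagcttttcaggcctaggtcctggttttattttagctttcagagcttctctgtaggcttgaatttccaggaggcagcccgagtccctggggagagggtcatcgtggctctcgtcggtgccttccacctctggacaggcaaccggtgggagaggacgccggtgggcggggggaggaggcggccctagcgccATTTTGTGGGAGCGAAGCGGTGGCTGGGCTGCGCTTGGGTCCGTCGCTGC
PTPRT promoter: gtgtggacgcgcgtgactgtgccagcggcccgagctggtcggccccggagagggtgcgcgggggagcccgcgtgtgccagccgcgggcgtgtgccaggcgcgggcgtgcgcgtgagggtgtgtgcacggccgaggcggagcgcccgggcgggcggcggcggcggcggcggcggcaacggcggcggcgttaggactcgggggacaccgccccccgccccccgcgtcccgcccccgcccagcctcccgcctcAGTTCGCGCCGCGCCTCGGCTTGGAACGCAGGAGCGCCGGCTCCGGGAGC
The dinucleotide CG occurred 17 times in the TARDBP stretch and 53 times in that of PTPRT, against a median of 14 over 27305 promoters of the same length. The PTPRT and PTPRT-DT windows shared 258 bases.

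Runs of UG, the preferred binding sequence of TDP-43, were looked for in the longest GENCODE 29 transcript of each of the 40 protein-coding genes with the largest changes described below (the motif was TGTGTGTGTGTG or GTGTGTGTGTGT on the transcript strand, overlaps merged). It was found in 3 of the 40, GALR1, MC1R and HS6ST3, and in 5.94% of all 14285 tested protein-coding genes with a transcript. The longest run of these 3 genes, and those of INSR and TARDBP for comparison, are shown in capitals within at most 30 bases.
GALR1 (chr18:77270529-77270563, 3′ UTR): TGTGTGTGTGTGTGTGTGTGTGTGTGTGTG
MC1R (chr16:89914164-89914179, 5′ UTR): gcacattTGTGTGTGTGTGTGTGcctgtgt
HS6ST3 (chr13:96836337-96836348, 3′ UTR): acgtgtgtgGTGTGTGTGTGTtttattaag
INSR (chr19:7116408-7116417, 3′ UTR): gtgtatgcacGTGTGTGTGTccattagaca
TARDBP (chr1:11023770-11023777, 3′ UTR): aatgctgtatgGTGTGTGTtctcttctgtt
The run of GALR1 is 35 bases long and is cut at 30. GALR1 and HS6ST3 fell and MC1R rose in knockdown soma. The 3 of 40 are near the share over all tested protein-coding genes, so nothing on UG runs is drawn from these 3 genes. Introns, where TDP-43 binds most, were not searched.

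Counts were scaled to counts per 1e6 (CPM) with TMM factors and tested with edgeR's quasi-likelihood test, with Benjamini-Hochberg adjustment over all genes tested and calls at adjusted p under 0.05. CPM are not divided by gene length, so levels of different genes are not compared. A log2 change is knockdown over nontargeting-sgRNA and is followed by ± its standard error, and a CPM by ± the SD of its group (n = 4 knockdown and n = 5 nontargeting-sgRNA libraries). Total counts divided by 1e6 lay between 16.2 and 28.9 in the knockdown libraries and between 15.7 and 20.3 in the nontargeting-sgRNA libraries. In bulk RNA, fewer cells of a type and less RNA per cell cannot be told apart.

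Of 22014 genes tested in soma, 4170 (18.9%) were called: 2072 (9.41%) were higher and 2098 (9.53%) lower in knockdown soma. Changes over 2-fold were found for 233 higher genes (1.06%) and 214 lower genes (0.972%). The CPM of the groups did not overlap for 4795 genes (21.8%). The median log2 change over all genes tested was 0.017. With library sizes in place of TMM factors 1677 genes were called, 775 higher and 902 lower, and of 186 called genes considered for the text 147 were among them.

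**Figure D1:**
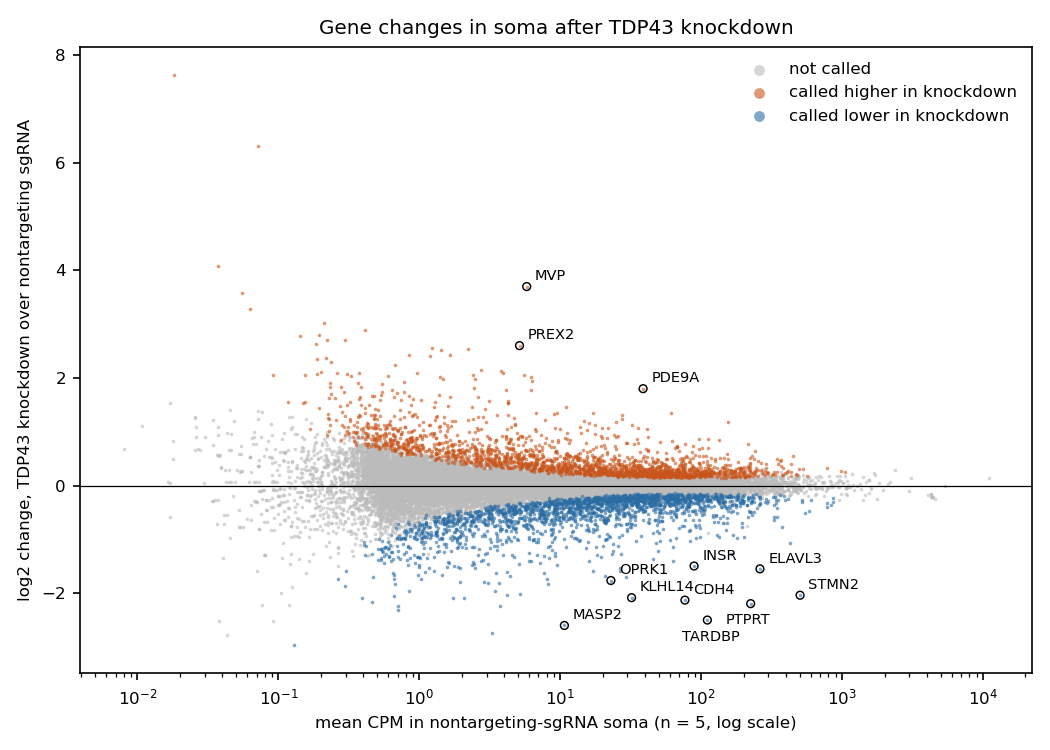
Log2 change in knockdown over nontargeting-sgRNA soma (y axis) against the mean CPM in nontargeting-sgRNA soma (x axis, log scale) for the genes tested that had a control CPM above 0, 1 point a gene, with called genes in colour and genes named in the text labelled. MVP stands at 3.70 and TARDBP at -2.50 on the y axis, and most called genes lie between -1 and 1.

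TARDBP (chr1:11012344-11026420, + strand, positions of genes here and below from GENCODE 29 on hg38) was 18.7, 18.8, 20.1 and 20.6 CPM in the 4 knockdown libraries, against 118, 112, 107, 106 and 110.4 CPM in nontargeting-sgRNA libraries. All knockdown libraries lay far below all controls, at 17.6% of the control mean (log2 change -2.50 ± 0.067, adjusted p = 8.94e-21). MASP2, a complement protease gene that runs toward TARDBP from the opposite strand and ends 102 bases from it, had 1.78 ± 0.226 CPM in knockdown soma and 10.7 ± 0.514 CPM in nontargeting-sgRNA soma (log2 change -2.60 ± 0.12, adjusted p = 6.36e-16). Whether MASP2 counts hold reads that run on from TARDBP was not tested, and the sources used here do not give the strand setting of the counting.

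PTPRT (chr20:42072752-43189970, - strand), a receptor tyrosine phosphatase and adhesion molecule, had 48.2, 50.3, 48.4 and 49.3 CPM in knockdown libraries and 236, 229, 215, 220.2 and 222 CPM in nontargeting-sgRNA libraries. The lowest control held 4.27 times the highest knockdown value (log2 change -2.19 ± 0.069, adjusted p = 2.10e-19). Its divergent RNA PTPRT-DT fell too, to 2.53 ± 0.511 CPM in knockdown soma against 7.68 ± 0.507 CPM in nontargeting-sgRNA soma (log2 change -1.62 ± 0.12, adjusted p = 5.93e-11). CDH4, which codes for R-cadherin, had 18.5, 18.4, 17 and 16.4 CPM in knockdown libraries and 73.2, 82.9, 64.2, 83.4 and 79.4 CPM in nontargeting-sgRNA libraries. The groups did not overlap, and nontargeting-sgRNA sample 4 was the lowest control (log2 change -2.13 ± 0.090, adjusted p = 1.63e-16). KLHL14, a Kelch-family protein, stood at 7.74, 8.24, 7.56 and 6.85 CPM in knockdown and at 29, 34.3, 31.5, 31.2 and 34.2 CPM in nontargeting-sgRNA libraries. Its change of -2.08 ± 0.081 (adjusted p = 2.61e-17) was accompanied by one of -1.06 in hnRNPA1-knockdown soma (adjusted p = 6.65e-14).

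Receptors for peptides and amines were among the 20 largest decreases of protein-coding genes at 5 CPM or more with no overlap of the groups. OPRK1, the kappa opioid receptor, had 7.28, 6.13, 6.45 and 7.07 CPM in knockdown libraries and 23.9, 22.3, 21.6, 23.7 and 22.9 CPM in nontargeting-sgRNA libraries. The groups did not overlap, and knockdown soma held 29.4% of the control mean (log2 change -1.76 ± 0.082, adjusted p = 1.17e-15). GALR1, a galanin receptor, changed by -1.73 ± 0.15, GPR83, a G protein-coupled receptor of the brain, by -1.70 ± 0.092, and ADRA1A, an adrenergic receptor, by -1.59 ± 0.10 on the log2 scale (adjusted p = 4.91e-10, 3.46e-14 and 3.20e-12). The cation channel TRPC5 (-1.52 ± 0.13), the heparan sulfate sulfotransferase HS6ST3 (-1.58 ± 0.092), the brain glycosyltransferase MGAT5B (-1.401 ± 0.074), the synaptic C1q-like protein C1QL3 (-2.01 ± 0.16) and the transcription factor TFAP2A (-1.83 ± 0.17) were in the same 20. The insulin receptor INSR and the insulin receptor substrate IRS4 both fell. INSR stood at 31, 32.1, 31.1 and 32.1 CPM in knockdown and at 91.9, 90.4, 85.2, 91.2 and 86.6 CPM in nontargeting-sgRNA libraries. These values were tight within groups and did not overlap (log2 change -1.49 ± 0.053, adjusted p = 5.64e-18). IRS4 had 2.68 ± 0.278 CPM in knockdown soma and 7.23 ± 0.568 CPM in nontargeting-sgRNA soma (log2 change -1.43 ± 0.13, adjusted p = 1.40e-09). SGSM1 (-1.402 ± 0.10) and the kinase STK32B (-1.401 ± 0.11) complete the 20, with STMN2 and ELAVL3 described below.

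The largest increase of any protein-coding gene at that level was that of MVP (chr16:29820394-29848039, + strand), the major vault protein, which forms the shell of the vault ribonucleoprotein. MVP had 72.4, 84.9, 75.4 and 67.6 CPM in the knockdown libraries, against 4.99, 5.24, 5.96, 7.15 and 5.56 CPM in nontargeting-sgRNA libraries. The lowest knockdown library held 9.46 times the highest control, and the means differed 13-fold (log2 change 3.70 ± 0.10, adjusted p = 1.80e-20). Of the other vault genes, PARP4 rose (6.4 ± 0.426 CPM in knockdown soma, 3.51 ± 0.468 CPM in nontargeting-sgRNA soma, log2 change 0.85 ± 0.10, adjusted p = 1.57e-07) and TEP1 fell (log2 change -0.63 ± 0.12, adjusted p = 4.53e-04). VTRNA1-3, one of the small vault RNAs, had 11.7 ± 2.41 CPM in knockdown soma and 8.19 ± 1.28 CPM in nontargeting-sgRNA soma and was not called (adjusted p = 0.0652).

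PREX2, an exchange factor for the GTPase RAC, followed with 32.1, 31.3, 32.2 and 30.2 CPM in knockdown and 6.55, 4.12, 5.37, 5.25 and 4.41 CPM in nontargeting-sgRNA libraries. The groups were 6.12-fold apart without overlap (log2 change 2.60 ± 0.095, adjusted p = 7.70e-18). The developmental transcription factors NFIB and TLX1 rose. NFIB changed by 2.15 ± 0.11 and TLX1 by 1.95 ± 0.10 (adjusted p = 1.73e-14 and 8.65e-15). The 20 largest increases also included the metalloprotease TLL1, the collagen COL27A1 (2.41 ± 0.18), FCGBP, a mucin-like protein (2.08 ± 0.11), the complement inhibitor SERPING1 (1.57 ± 0.10) and the elastin cross-linking enzyme LOXL1 (1.46 ± 0.11). TLL1 had 8.15, 8.48, 8.20 and 8.18 CPM in knockdown libraries and 1.72, 1.2304, 1.56, 1.221 and 1.401 CPM in nontargeting-sgRNA libraries. The lowest knockdown value was 4.75 times the highest control (log2 change 2.52 ± 0.11, adjusted p = 7.77e-16). PDE9A, a cyclic GMP phosphodiesterase, had 148, 140.5, 138 and 114 CPM in knockdown and 39.3, 38.5, 38.7, 38.9 and 38.1 CPM in nontargeting-sgRNA libraries. Knockdown sample 4 was the lowest of its group and held 2.90 times the highest control (log2 change 1.8 ± 0.073, adjusted p = 7.33e-17).

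Further large increases were those of the receptors MC1R (2.06 ± 0.094) and ACKR1 (2.12 ± 0.10), the G protein subunit GNG8 (1.98 ± 0.13), the receptor phosphatase PTPRQ (1.97 ± 0.11), the cilia-associated CFAP276 (2.42 ± 0.13), ZNF565 (1.77 ± 0.081), CCDC88B (1.53 ± 0.11) and the neurexin-related pair CNTNAP3 (1.78 ± 0.10) and CNTNAP3B (1.57 ± 0.10). The last 2 are near-identical copies on chromosome 9, so their reads could have been divided between them. The largest adjusted p among the 40 genes chosen by size was 3.50e-09. That their groups do not overlap was a condition of the choice.

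**Figure D2:**
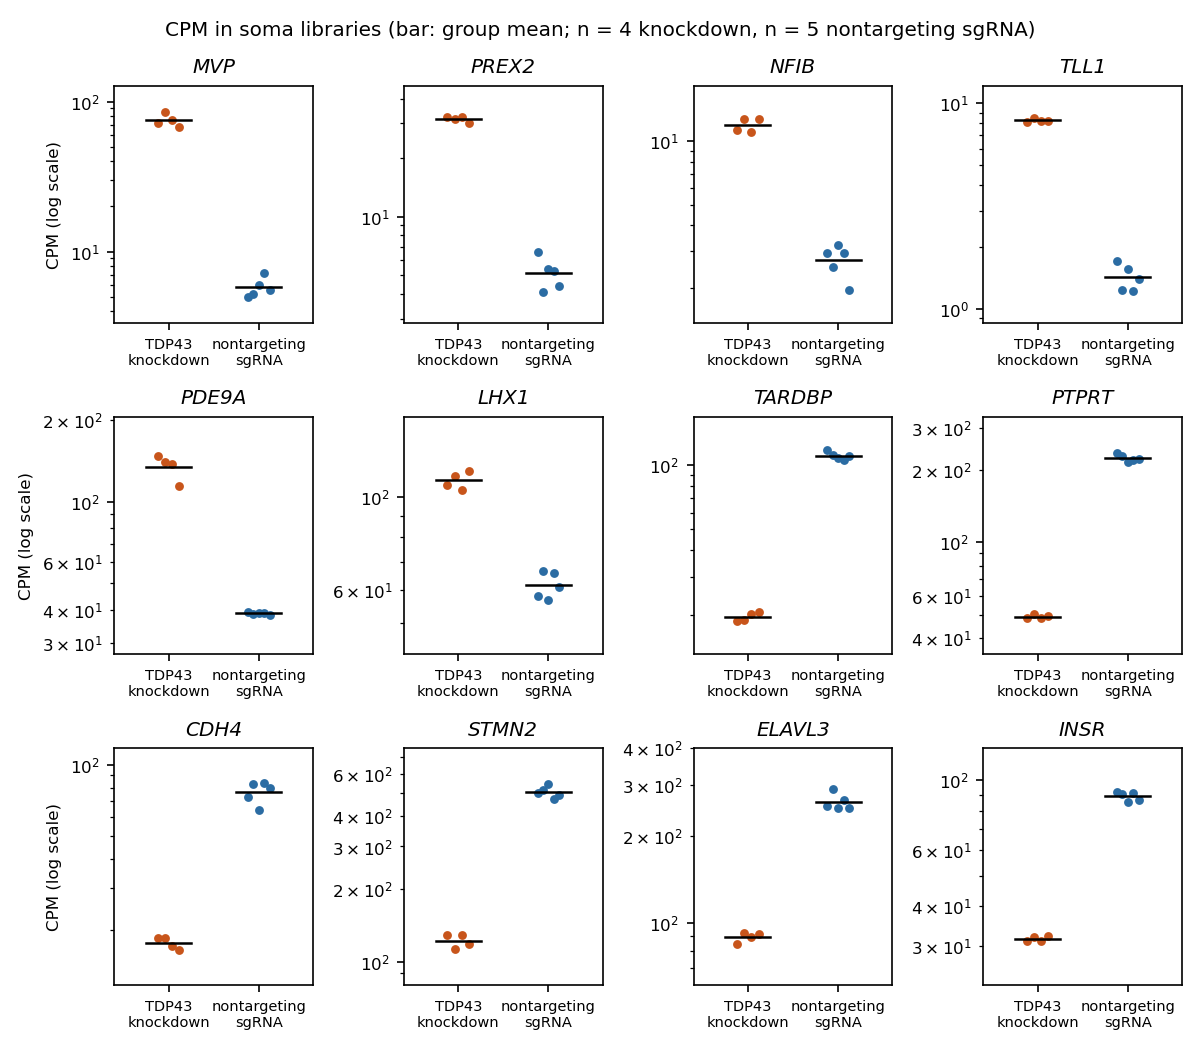
CPM (y axis, log scale) of 12 genes in each soma library, 1 point a library, with the 4 knockdown libraries left and the 5 nontargeting-sgRNA libraries right in each panel and a bar at the group mean. The groups do not overlap in any of the 12 panels, with MVP at 75.1 CPM against 5.78 CPM and STMN2 at 123 CPM against 503 CPM.

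Genes reported to gain cryptic exons or altered splice sites when TDP-43 is lost formed a list of 36, all of them tested. Of these 25 were called (69.4%, against 18.9% of all genes): 19 fell and 6 rose, with a median log2 change of -0.24. STMN2 (chr8:79610814-79666175, + strand), which codes for the axonal microtubule regulator stathmin-2, had 129, 113, 129.7 and 118 CPM in knockdown libraries and 499.9, 511, 544, 472 and 489 CPM in nontargeting-sgRNA libraries. Knockdown soma held 24.4% of the control mean and no library overlapped (log2 change -2.04 ± 0.081, adjusted p = 4.89e-17). The other stathmins had 460.3 CPM in knockdown soma against 467 CPM in nontargeting-sgRNA soma (STMN1), 245 against 237 CPM (STMN3) and 146 against 160.1 CPM (STMN4), and none of these was called. ELAVL3, a neuronal RNA-binding protein, had 84.4, 92.1, 89.6 and 91.2 CPM in knockdown libraries and 254, 289.9, 249, 264 and 249 CPM in nontargeting-sgRNA libraries. The lowest control held 2.705 times the highest knockdown value (log2 change -1.55 ± 0.064, adjusted p = 1.05e-16).

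Further decreases on that list were those of PFKP, the platelet-type phosphofructokinase (-1.214 ± 0.11), the RNA-binding protein CELF5 (-0.97 ± 0.064), the RAP GTPase activator RAP1GAP (-0.81 ± 0.080), the actin regulator CYFIP2 (-0.78 ± 0.062), the kinase CDK7 (-0.71 ± 0.084), the adenylate cyclase ADCY8 (-0.62 ± 0.091) and the autophagy protease ATG4B (-0.52 ± 0.058). UNC13A, which primes synaptic vesicles for release, had 204, 214, 199 and 183 CPM in knockdown libraries and 264, 261, 247, 264 and 254 CPM in nontargeting-sgRNA libraries. The groups did not overlap, but the change was modest, at 77.5% of control (log2 change -0.37 ± 0.073, adjusted p = 4.70e-04). In neurites UNC13A changed by -0.77, and the difference of 0.40 ± 0.10 between fractions was called (adjusted p = 0.0116). Neither its soma change nor this difference was called with library sizes in place of TMM factors. Its relatives UNC13B (-0.60 ± 0.052) and UNC13C (-0.88 ± 0.10) fell in soma as well. The 6 listed genes that rose were AGRN, which codes for the synapse organiser agrin (0.55 ± 0.088), GPSM2 (0.44 ± 0.12), EPB41L4A (0.39 ± 0.054), the calcium sensor SYT7 (0.30 ± 0.062), MYO1C (0.25 ± 0.064) and NPLOC4 (0.19 ± 0.048). Of these 6 all but AGRN lost their call with library sizes in place of TMM factors. Of 28 tested genes reported as other TDP-43 targets, 7 rose (25%) and 9 fell (32.1%), against 9.41% higher and 9.53% lower over all genes. RANBP1, a regulator of RAN-driven nuclear transport, had 29.8, 30, 29.5 and 29 CPM in knockdown libraries and 55.8, 64.5, 60.8, 58 and 60.5 CPM in nontargeting-sgRNA libraries, a drop to 49.4% without overlap (log2 change -1.02 ± 0.078, adjusted p = 8.25e-11). MADD (-0.76 ± 0.062), the vesicle-priming protein CADPS (-0.58 ± 0.054) and the deacetylase HDAC6 (-0.54 ± 0.053) fell too, while GRN, the progranulin gene, rose (0.48 ± 0.077), as did its receptor SORT1 (0.20 ± 0.058). The change of SORT1 was not called with library sizes. These lists hold genes that were reported from TDP-43 depleted neurons of similar kinds, so they are not independent of the kind of experiment.

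Among 35 tested genes linked to ALS or frontotemporal dementia, 2 rose (5.71%, GRN and TIA1) and 8 fell (22.9%), TARDBP, STMN2 and UNC13A among them, against 9.41% higher and 9.53% lower over all genes. The 8 include TARDBP, which is the target of the knockdown. The other decreases were small: GLE1 (-0.39 ± 0.077), MAPT (-0.32 ± 0.063), UBQLN2 (-0.30 ± 0.068), SQSTM1 (-0.24 ± 0.058) and OPTN (-0.22 ± 0.051). With library sizes in place of TMM factors none of these small decreases was called, nor was that of UNC13A. Of 30 hnRNP genes, the family to which TDP-43 is related, 3 rose and 1 fell. The share higher (10%) was close to that over all genes and the share lower (3.33%) was below it. HNRNPC (0.23 ± 0.056) and HNRNPUL2 (0.27 ± 0.073) were among those that rose, and RALY fell (-0.39 ± 0.065). HNRNPC was not called with the sample number as a replicate block, and with library sizes HNRNPC, HNRNPUL2 and RALY were not called. Of 39 SR and neuronal splicing factors 7 rose (17.9%) and 6 fell (15.4%). MBNL2, a splicing factor of mature neurons, rose to 11.4 ± 1.222 CPM in knockdown soma, against 6.01 ± 0.508 CPM in nontargeting-sgRNA soma (log2 change 0.92 ± 0.10, adjusted p = 4.84e-08), and ELAVL2 (0.35 ± 0.058) and ELAVL4 (0.27 ± 0.058) rose while ELAVL3 fell. ELAVL2 and ELAVL4 were not called with library sizes either.

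The presynaptic and the postsynaptic list each held more genes called lower than higher. Of 54 presynaptic genes tested, 16 fell (29.6%) and 6 rose (11.1%), with a median log2 change of -0.10. Of 53 postsynaptic genes, 18 fell (34%) and 7 rose (13.2%), with a median of -0.12, against 9.53% lower and 9.41% higher over all genes. The list of neurexins and synaptic adhesion genes, given below, had more genes called higher. Rabphilin, RPH3A, had 12.5, 12.1, 11 and 10.9 CPM in knockdown libraries and 21.3, 23.9, 20.5, 23.6 and 22.6 CPM in nontargeting-sgRNA libraries, without overlap (log2 change -0.95 ± 0.076, adjusted p = 1.60e-10). The synaptotagmins SYT2 (-0.72 ± 0.094) and SYT4 (-0.47 ± 0.062), RAB3C (-0.69 ± 0.078) and the synapsins SYN2 (-0.56 ± 0.071) and SYN3 (-0.47 ± 0.080) fell. DOC2B, a calcium sensor of spontaneous release (1.05 ± 0.085), the complexin CPLX2 (0.77 ± 0.067) and SYT1 (0.48 ± 0.062) rose. On the postsynaptic side the glutamate receptors GRIK4 (-1.48 ± 0.20), GRM7 (-0.85 ± 0.073), GRM5 (-0.64 ± 0.12) and GRIN2B (-0.45 ± 0.081), the GABA receptor subunits GABRA2 (-0.69 ± 0.087) and GABRA3 (-0.62 ± 0.088), and the kinase genes CAMK2A (-0.65 ± 0.093), CAMK2B (-0.48 ± 0.068) and CAMK2D (-0.47 ± 0.054) fell, whereas GRIK2 (0.68 ± 0.089) and LRRTM2 (0.88 ± 0.12) rose.

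Potassium channel genes were called lower in 20 of 53 tested (37.7%, against 9.53% of all genes) and higher in 8 (15.1%, against 9.41%), with a median of -0.16. KCND3, which carries A-type current, had 10.9, 12.1, 11.2 and 12.6 CPM in knockdown libraries and 27.2, 25.7, 26.1, 22.1 and 26.7 CPM in nontargeting-sgRNA libraries. The lowest control held 1.76 times the highest knockdown value (log2 change -1.12 ± 0.076, adjusted p = 6.12e-12). KCNC2 (-1.0 ± 0.13), KCNJ3 (-0.85 ± 0.095) and KCNA3 (-0.83 ± 0.083) fell, and KCNJ4 (0.66 ± 0.11) and KCNT1 (0.66 ± 0.16) rose. Of 28 sodium and calcium channel genes 6 fell (21.4%) and 2 rose (7.14%). The sodium channel SCN1A had 11.1, 12.6, 10.7 and 10.5 CPM in knockdown and 29.2, 22.5, 27.6, 26.2 and 29.7 CPM in nontargeting-sgRNA libraries, with no overlap (log2 change -1.27 ± 0.10, adjusted p = 9.84e-11), and the T-type calcium channel CACNA1I changed by -1.03 ± 0.092 (adjusted p = 1.53e-09).

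**Figure D3:**
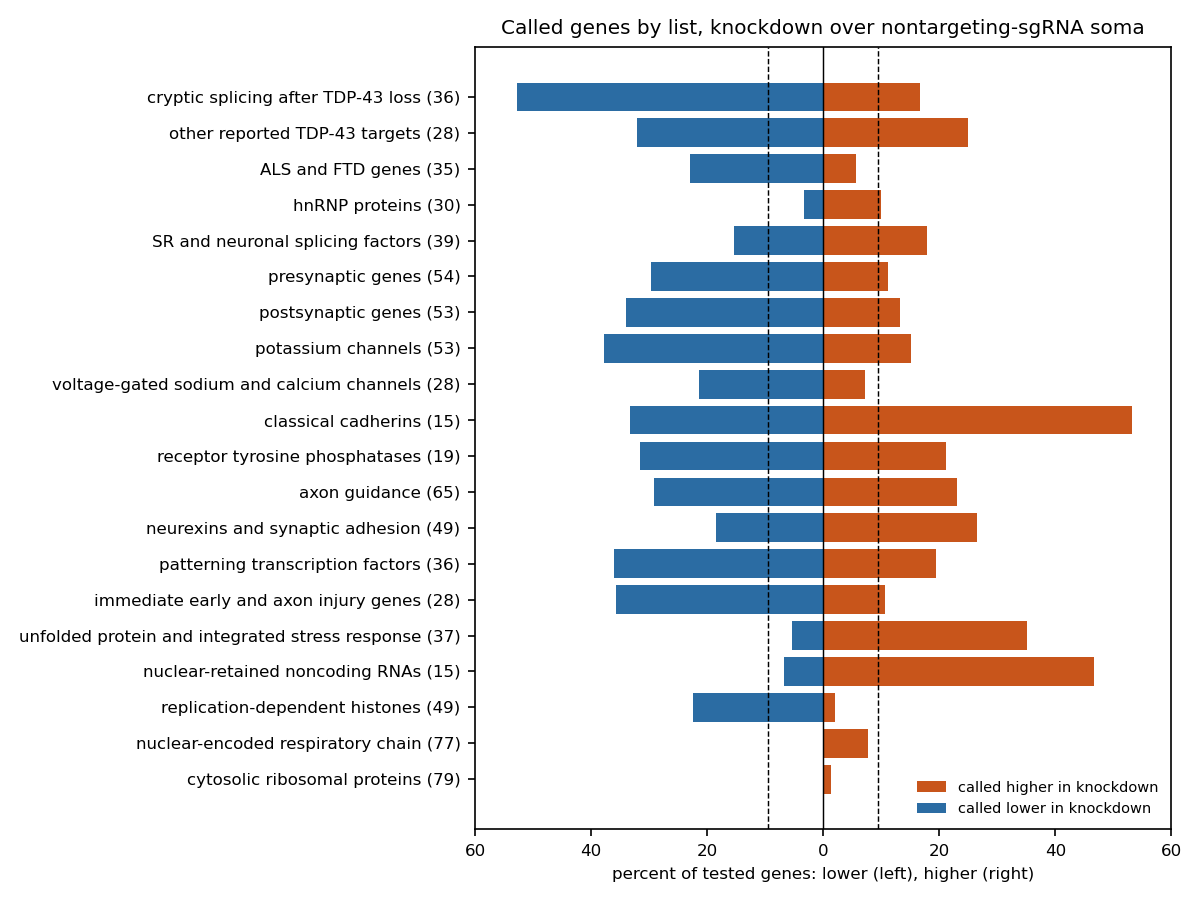
Percent of the tested genes of 20 lists that were called higher (right, orange) or lower (left, blue) in knockdown over nontargeting-sgRNA soma, with the number tested beside each name and dashed lines at the shares over all genes (9.41% higher, 9.53% lower). The list of cryptic splicing genes reached 52.8% lower, potassium channels 37.7% lower and classical cadherins 53.3% higher, and cytosolic ribosomal proteins 1.27% higher.

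Adhesion and guidance genes moved in both directions. The shares that follow stand against 9.41% higher and 9.53% lower over all genes. Of 15 classical cadherins tested, 8 rose (53.3%) and 5 fell (33.3%). CDH12 (0.87 ± 0.072), CDH24 (0.63 ± 0.075) and CDH10 (0.57 ± 0.064) rose by less than 2-fold, and CDH4 fell to 22.9% of control. Of 19 receptor tyrosine phosphatases 4 rose (21.1%) and 6 fell (31.6%), led by PTPRQ and PTPRT at the ends of the range. PTPRN2, a dense-core vesicle protein, fell (-0.92 ± 0.073) and PTPRZ1 rose (0.85 ± 0.10). Of 65 axon guidance genes 15 rose (23.1%) and 19 fell (29.2%). The semaphorin receptor PLXNA2 had 192, 215.7, 204 and 203 CPM in knockdown libraries and 431, 448, 421, 412 and 413 CPM in nontargeting-sgRNA libraries. The lowest control held 1.91 times the highest knockdown value (log2 change -1.06 ± 0.071, adjusted p = 4.76e-12). PLXNA4 fell alike (-0.96 ± 0.077), and the transmembrane semaphorin SEMA6A, a known ligand of these plexins, rose to 70.9 ± 2.17 CPM in knockdown soma, against 32.3 ± 0.50 CPM in nontargeting-sgRNA soma (log2 change 1.133 ± 0.057, adjusted p = 8.35e-15). Of 49 neurexin and synaptic adhesion genes 13 rose (26.5%), DSCAM (1.05 ± 0.10) and CADM3 (0.58 ± 0.057) among them, and 9 fell (18.4%), DSCAML1 (-1.25 ± 0.14) and OPCML (-0.94 ± 0.080) among them. In the matrix list 11 of 52 rose (21.2%) and 10 fell (19.2%). Tenascin-C, TNC, fell to 0.921 ± 0.314 CPM in knockdown soma, against 3.46 ± 0.624 CPM in nontargeting-sgRNA soma, without overlap (log2 change -1.96 ± 0.20, adjusted p = 1.78e-08), and reelin, RELN, changed by -0.40 ± 0.076. Those that rose included the proteoglycan genes BCAN (0.99 ± 0.16), NCAN (0.37 ± 0.070) and VCAN (0.52 ± 0.081), the link protein gene HAPLN1 (0.81 ± 0.16) and the tenascin gene TNR (0.51 ± 0.088).

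Transcription factors that pattern the nervous system were called lower in 13 of 36 tested (36.1%, against 9.53% of all genes) and higher in 7 (19.4%, against 9.41%). The largest decrease was NKX6-1 (0.840 ± 0.150 CPM in knockdown soma, 2.50 ± 0.424 CPM in nontargeting-sgRNA soma, log2 change -1.53 ± 0.18), followed by GBX2 (-1.29 ± 0.18) and POU3F3 (-1.09 ± 0.18). LHX4 (-1.03 ± 0.080) and LHX9 (-0.68 ± 0.082) fell, and LHX1 rose with its divergent transcript LHX1-DT. LHX1 had 107, 112, 104 and 115 CPM in knockdown libraries and 58.1, 66.5, 56.7, 65.7 and 60.9 CPM in nontargeting-sgRNA libraries, without overlap (log2 change 0.83 ± 0.061, adjusted p = 3.44e-11). The proneural factor NEUROD1 rose to 7.82 ± 0.602 CPM in knockdown soma, against 2.93 ± 0.360 CPM in nontargeting-sgRNA soma (log2 change 1.42 ± 0.10, adjusted p = 2.55e-11). Of 18 ID and BMP feedback genes 5 fell (27.8%), among them ID2 (-0.83 ± 0.12), ID4 (-0.67 ± 0.058) and BMP4 (-1.52 ± 0.23), and 1 rose (5.56%), FSTL1 (0.51 ± 0.080). Immediate early and injury genes were called lower in 10 of 28 (35.7%) and higher in 3 (10.7%). EGR1 varied widely, with 30.3, 18.2, 13 and 10.2 CPM in knockdown libraries and 61.1, 59.4, 35.9, 38.7 and 31.4 CPM in nontargeting-sgRNA libraries. Knockdown sample 1 was only just below the lowest control (log2 change -1.37 ± 0.24, adjusted p = 7.71e-05).

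Integrated stress and unfolded protein response genes, 1 list, were called higher in 13 of 37 (35.1%, against 9.41% of all genes) and lower in 2 (5.41%, against 9.53%). SLC7A11, the cystine transporter, had 13.1, 13.9, 14.3 and 13.1 CPM in knockdown libraries and 6.59, 5.72, 6.98, 7.91 and 6.37 CPM in nontargeting-sgRNA libraries, without overlap (log2 change 1.01 ± 0.093, adjusted p = 2.06e-09). PHGDH, which starts serine synthesis (0.72 ± 0.082), SLC7A5 (0.62 ± 0.069), SLC3A2 (0.46 ± 0.070), XBP1 (0.46 ± 0.071) and SHMT2 (0.37 ± 0.068) rose, while ATF5 (-0.76 ± 0.12) fell. Lists of basic cell machinery differed in their shares. Of 79 cytosolic ribosomal protein genes 1 was higher (1.27%) and none lower, of 35 proteasome genes 1 was lower (2.86%, PSME1, -0.61 ± 0.13) and none higher, and of 77 nuclear-encoded respiratory chain genes 6 were higher (7.79%) and none lower. Translation factors were higher in 8 of 48 (16.7%) and lower in 3 (6.25%), and glycolysis genes higher in 1 of 24 (4.17%) and lower in 4 (16.7%). Of 13 mitochondrially encoded genes none passed edgeR's test at adjusted p under 0.05 (2 at unadjusted p under 0.05, 0 with DESeq2 and 0 with limma-voom). Of 49 replication-dependent histone genes 11 were lower (22.4%) and 1 higher (2.04%). Of 21 tested interferon-stimulated genes 2 were higher (9.52%) and 3 lower (14.3%).

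Several classes of non-coding RNA were called higher more often than lower. Of 1785 antisense genes 7.34% were higher and 3.14% lower, of 288 sense-intronic genes 8.33% and 1.39%, and of 1649 processed pseudogenes 4.79% and 0.606%, against 10.7% higher and 12.9% lower among 14321 protein-coding genes. Nuclear-retained RNAs were higher in 7 of 15 tested (46.7%, against 9.41% of all genes) and lower in 1 (6.67%, against 9.53%) in soma. In neurites 1 of these 15 was called higher and 5 lower. NEAT1, the scaffold of paraspeckles, had 111, 98.7, 105 and 93.6 CPM in knockdown libraries and 80, 67.4, 84.8, 72.6 and 80.7 CPM in nontargeting-sgRNA libraries. The groups did not overlap (log2 change 0.40 ± 0.064, adjusted p = 2.83e-05), whereas those of MALAT1 did (log2 change 0.31 ± 0.074, adjusted p = 0.00304). Of 300 genes tested together with a divergent transcript that shares their name, the gene was called in 79 pairs, the divergent transcript in 33 and both in 17. Over all genes tested the share called was 18.9%. In all 17 pairs with both called, the partners moved the same way. Among these 17 the largest changes of the protein-coding partner were those of PTPRT, NRIP3 (-1.1302 ± 0.15), TOX (1.09 ± 0.10) and LHX1. MVP had the largest change of any gene in the 300 pairs, and its divergent transcript was not called (log2 change -0.034, adjusted p = 0.938). With the strand setting of the counting not given, reads of the 2 partners cannot be told apart where they overlap. Among the other non-coding RNAs with large changes, the antisense RNA CCNY-AS1 rose (1.82 ± 0.12), as did ENSG00000251484 (2.55 ± 0.16), ENSG00000229727 (2.05 ± 0.12), ENSG00000228748 (2.02 ± 0.14) and ENSG00000279161 (2.01 ± 0.11), and ENSG00000280234 fell (-1.68 ± 0.10).

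A row of 8 neighbouring genes on chromosome 11, all on the + strand, had reads in knockdown soma and almost none in controls. They are FADS2B and 7 olfactory receptor genes or pseudogenes, which lie within 291 kb upstream of LRRC55. OR5AK4P had 119, 154, 146 and 249 counts in the 4 knockdown libraries and 2, 1, 2, 0 and 3 counts in the 5 nontargeting-sgRNA libraries. OR5AO1P had 93, 149, 123 and 162 counts in knockdown and 0, 0, 1, 0 and 1 counts in nontargeting-sgRNA libraries. Both were therefore present in each knockdown library and at 3 counts or fewer in each control. Summed over libraries, FADS2B had 40 counts in knockdown and 4 in nontargeting-sgRNA soma, OR5AK3P 30 and 2, OR5AK2 72 and 7, OR5AK1P 42 and 0, OR5BQ1P 30 and 3, and OR5BP1P 53 and 2. Of the 8, 3 passed the filter on low counts. LRRC55, the next gene, had 76.3 ± 1.598 CPM in knockdown soma and 83.4 ± 5.72 CPM in nontargeting-sgRNA soma and was not called. In neurites OR5AK4P had 149 counts in knockdown and 1 in nontargeting-sgRNA libraries and OR5AO1P 119 and 7. Counts of the other 6 were low there, at 13 or fewer in knockdown and 3 or fewer in nontargeting-sgRNA neurites, and OR5BQ1P had 1 in knockdown and 3 in nontargeting-sgRNA neurites. In the hnRNPA1 experiment OR5AK4P had 10 and 8 counts in knockdown and control soma. FADS2B had 13 counts in hnRNPA1-knockdown and 21 counts in nontargeting-sgRNA soma.

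**Figure D4:**
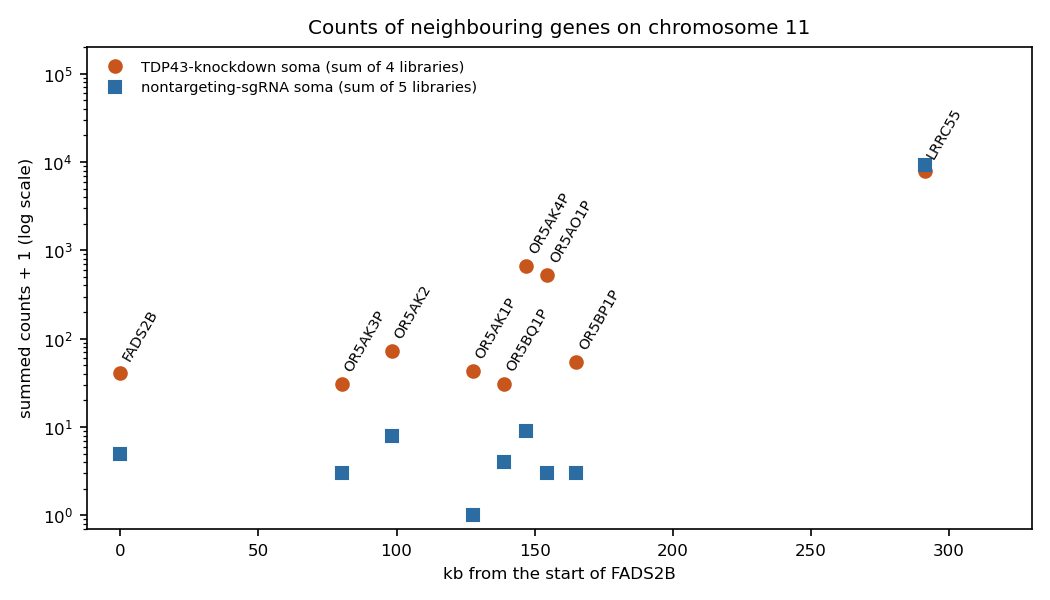
Counts summed over libraries (y axis, log scale after adding 1) of the 9 genes from FADS2B to LRRC55 on chromosome 11, drawn at their distance in kb from the start of FADS2B (x axis), for TDP43-knockdown soma (4 libraries) and nontargeting-sgRNA soma (5 libraries). The 8 genes before LRRC55 lie between 30 and 668 counts in knockdown soma and at 8 counts or fewer in nontargeting-sgRNA soma, and LRRC55 at 7999 and 9165 counts.

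SNORD115 small nucleolar RNAs, which are made from introns of the long RNA SNHG14 on chromosome 15, were lower. Summed over all 48 copies in the table and given as counts per 1e6 total counts, they stood at 20.4, 13.5, 12.5 and 10.9 in the 4 knockdown libraries and at 50.1, 38.1, 37.9, 45.3 and 49.7 in the 5 nontargeting-sgRNA libraries. The highest knockdown library lay well below the lowest control (2-sided exact permutation test, p = 0.0159, the smallest that 4 against 5 libraries can give). The SNORD115 and SNORD116 sums were chosen after their values were seen, so this p-value describes the separation and is no independent support for it. The neighbouring SNORD116 copies, from the same host RNA, summed to 118, 64.4, 81.6 and 76.4 per 1e6 in knockdown libraries and to 84, 65.4, 49.6, 75.2 and 89.6 per 1e6 in nontargeting-sgRNA libraries, and these groups overlapped (exact p = 0.429). SNHG14 itself had 1895 ± 318 CPM in knockdown soma and 1832 ± 159.5 CPM in nontargeting-sgRNA soma and was not called. In neurites the SNORD115 sum had a median of 7.43 per 1e6 in knockdown and 18.4 per 1e6 in nontargeting-sgRNA libraries. The SNORD116 sum was lower there as well, with a median of 5.40 per 1e6 in knockdown and 24.1 per 1e6 in nontargeting-sgRNA neurites and no overlap, and the median log2 change in neurites of the 92 tested snoRNA genes outside SNORD115 was -1.14, against 0.036 in soma. In hnRNPA1-experiment soma the medians were 55 in knockdown and 37.8 in nontargeting-sgRNA libraries for SNORD115, and 73.6 and 53.2 for SNORD116. The copies are near-identical, so reads cannot be assigned to single copies, and of the 48 only 13 passed the filter on low counts. Of 92 other snoRNA genes tested, 1 was higher and none was lower by edgeR's test at adjusted p under 0.05 (0 lower at unadjusted p under 0.05, and 1 called in either direction with DESeq2 and with limma-voom).

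The share of genes called was larger among longer genes. Among protein-coding genes spanning under 10 kb 5.39% were higher and 14.2% lower, and among those over 300 kb 21.3% were higher and 23.2% lower in knockdown soma. The median control CPM also differed, at 29.2 CPM over 300 kb against 9.93 CPM under 10 kb, and its part in the shares was not tested. Genes with 2 or more UG runs in the longest transcript were higher in 26.1% and lower in 13.4% of 134, and genes with none in 10.1% and 12.7% of 13436. Within transcripts of 4 kb or more these shares were 23.4% and 15.9% with 2 or more runs and 13.1% and 14.5% with none. The median control CPM differed here too, at 48.6 CPM with 2 or more runs and 18.35 CPM with none. Within transcripts of 4 kb or more it was 60.4 and 32.65 CPM. Its part in these shares was not tested. The median log2 change over all lengths was 0.054 with 2 or more runs and -0.011 with none.

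The neurite fraction of the same experiment was set beside the soma comparison. The labels number the fractions alike, as 2 fractions of a sample, so the fractions share no library but are not independent samples. In neurites 5470 genes (24.8%) were called. Of 4170 genes called in soma 1831 (44%) were also called in neurites, which are 33.5% of 5470 neurite calls, and 1693 of the 1831 had the same sign. The difference between fractions was called for 2306 genes (10.5%), of which 1028 (4.67% of all tested) had the higher, more positive value in soma and 1278 (5.81%) the lower. With library sizes in place of TMM factors it was called for 328 genes, 198 of them with the higher value in soma. Among 136 genes at 5 CPM or more that changed over 2-fold in soma, 135 had the same sign in neurites, 62 changed more in soma, and 2 changed more in neurites. These 136 were chosen by their soma change, so a smaller neurite change is favoured by the choice. TARDBP itself fell less in neurites (-1.48), with a difference of -1.02 ± 0.090 (adjusted p = 4.07e-08). MVP differed by 1.49 ± 0.16 and PDE9A by 1.181 ± 0.11 (adjusted p = 1.76e-06 and 6.10e-08), both with the larger increase in soma. PLXNA2 changed by -1.06 ± 0.071 in soma and by -0.21 in neurites, a difference of -0.85 ± 0.10 (adjusted p = 2.72e-06).

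Other genes with the smallest p in this test changed in neurites and little or not at all in soma. PHF2, a histone demethylase, had a log2 change of 0.022 ± 0.060 in soma and of 1.54 in neurites, a difference of -1.52 ± 0.085 (adjusted p = 2.54e-12). The transport adaptors TRAK2 and BICD2 had changes of 0.31 ± 0.10 and 0.10 ± 0.086 in soma and of 1.68 and 1.213 in neurites, with differences of -1.37 ± 0.14 and -1.11 ± 0.12 (adjusted p = 6.71e-07 and 9.33e-07). NKD2 (-2.05 ± 0.18), MLYCD (-1.233 ± 0.11) and TP53INP2 (-1.07 ± 0.11) differed in the same direction, and SYT13 fell in soma (-0.69 ± 0.058) and had 0.050 in neurites. On the other side NCAM1-AS1 rose in soma (0.89 ± 0.093) and had -0.30 in neurites, and MIR137HG rose in soma (0.50 ± 0.064) and fell in neurites (-0.30). TTN (0.74 ± 0.10), VTRNA1-3 (2.48 ± 0.32), CNTNAP3P2 (1.43 ± 0.19) and ENSG00000290548 (1.01 ± 0.12) were the remaining ones with a higher value in soma, and the difference of TTN was not called with library sizes in place of TMM factors.

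**Figure D5:**
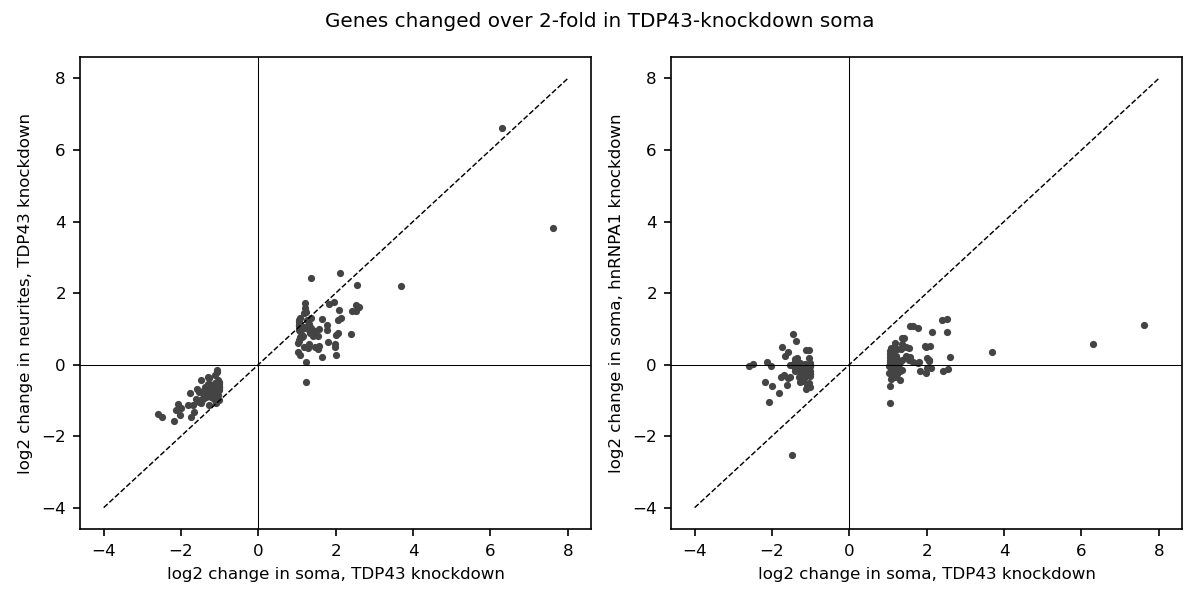
Log2 change in TDP43-knockdown over nontargeting-sgRNA soma (x axis) against that in neurites of the same experiment (left, y axis) and against that of hnRNPA1-knockdown over nontargeting-sgRNA soma (right, y axis) for the 136 genes with a soma change over 2-fold at 5 CPM or more, 1 point a gene, with a dashed line where both changes are equal. In the left panel 135 of 136 points have the same sign on both axes, and for 132 of the 136 genes in the right panel the difference from the hnRNPA1 effect was called.

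Against hnRNPA1 knockdown in soma, which had its own nontargeting-sgRNA libraries, the calls overlapped in part. The difference between the knockdown effects was called for 2908 of 22890 genes (12.7%), 1508 with the higher value after TDP-43 knockdown. Of 21824 genes tested in both, 4154 were called in TDP43-knockdown soma and 1440 after hnRNPA1 knockdown. Called in both were 527 genes, which are 12.7% of the 4154 and 36.6% of the 1440, and 335 of the 527 had the same sign. Of the same 136 genes with a large soma change, chosen by that change, 132 differed between the knockdowns in its direction. STMN2 (-0.046), ELAVL3 (-0.012), INSR (-0.014) and CDH4 (0.085) had log2 changes near 0 after hnRNPA1 knockdown, and their differences between knockdowns were -2.0 ± 0.10, -1.54 ± 0.090, -1.48 ± 0.074 and -2.22 ± 0.13 (adjusted p = 5.96e-21, 4.09e-19, 2.04e-21 and 3.36e-19). MVP differed by 3.34 ± 0.17 and PDE9A by 1.72 ± 0.090 (adjusted p = 8.51e-21 and 1.15e-20). LHX1 went opposite ways, rising after TDP-43 knockdown (0.83 ± 0.061) and falling after hnRNPA1 knockdown (-1.07), with a difference of 1.89 ± 0.11 (adjusted p = 2.14e-19). LHX1-DT did the same (difference 2.15 ± 0.12), and TNC fell after TDP-43 knockdown and rose after hnRNPA1 knockdown (1.69, difference -3.65 ± 0.28, adjusted p = 8.09e-15). P2RX3, an ATP receptor of sensory neurons (1.184 ± 0.059 in TDP43-knockdown and -0.34 in hnRNPA1-knockdown soma), C1orf216 (difference 1.498 ± 0.092) and MAGI3 (difference 1.134 ± 0.070) also differed. TLL1, NFIB, COL27A1 and CNTNAP3 rose after both knockdowns, by log2 changes of 0.90, 0.91, 1.25 and 1.03 after that of hnRNPA1, and for each the increase was larger after that of TDP-43 (adjusted p of the difference 3.10e-10, 4.36e-09, 1.22e-04 and 1.23e-05).

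The labelled cell type was checked against its markers. The 14 neuron markers summed to 6918 to 7729 CPM in knockdown and 7090.0 to 7567 CPM in nontargeting-sgRNA libraries, ranges that overlap. Markers of pluripotent cells summed to 90.6 to 93.4 CPM in knockdown and 92.5 to 101 CPM in nontargeting-sgRNA libraries, those of cycling cells to 55.3 to 62.3 and 56 to 59.2 CPM, and those of microglia to 1.99 to 2.56 and 1.34 to 2.76 CPM. Astrocyte and oligodendrocyte markers summed to 327 to 336 CPM in knockdown and 341 to 371 CPM in nontargeting-sgRNA libraries, and did not overlap. Of these 17 markers 7 passed the filter on low counts, and AQP4, OLIG2 and MOG did not, though no listed marker was at 0 in all 9 libraries. Neural progenitor markers summed to 337 to 369 CPM and 273 to 345 CPM, of which SOX2 fell (-0.98 ± 0.081) and NES rose (0.32 ± 0.073). The part of these marker genes in the other results was not tested. Of 9 measures of library composition, such as the shares of ribosomal RNA and of mitochondrially encoded genes, none passed an adjusted p under 0.05 in exact permutation tests with Benjamini-Hochberg adjustment, and 1 had an unadjusted p under 0.05. This was the share of MALAT1 and NEAT1, with 0.0349 ± 0.00231% in knockdown and 0.0276 ± 0.00278% in nontargeting-sgRNA libraries (exact p = 0.0317, adjusted p = 0.285). In the exact test 4 against 5 libraries cannot give a p below 0.0159, so 1 of the 9 measures alone could not have passed after adjustment.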

How the data were processed

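The deposited table holds expected counts, which the authors made for 63241 genes by alignment to hg38 (STAR 2.7.11b) and counting with featureCounts (Subread 2.0.6), per the submitters' processing notes. Libraries came from 10 ng of total RNA and the Takara Total RNA-seq v3 Pico kit, per the labels' protocols. No source used here gives the annotation, the strand mode or how multi-mapped reads were handled. Of the nonzero values, 81.1% were whole within 0.005.

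Counts were rounded and fitted with edgeR 4.0.16 (R 4.3.3, TMM, filterByExpr, quasi-likelihood F tests) over all 19 libraries of the experiment with at least 100000 counts. Neurite differences are contrasts of that fit, and hnRNPA1 differences come from a fit of both experiments. The standard error is the size of the log2 change over the square root of F. Among 16 pairs of libraries of 1 group none was a copy (chi-square per degree of freedom 3.66 to 16.4). The tests were tried on simulated counts. Alternatives were DESeq2 1.42.0, limma 3.58.1 (voom), other scalings and filters, and leaving out libraries. Names and types came from a gene name table and GENCODE 29, which held 58228 of the genes. Standard errors and p-values of these fits cover counting error and the spread between these libraries only.

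The groups to compare and the 46 gene lists, drawn from general knowledge, were chosen with earlier results of these data known. Genes were named from the lists, as the 20 largest increases and the 20 largest decreases of called protein-coding genes with at least 5 CPM and no overlap of the groups, as up to 8 of other types, and by the 8 smallest p-values in each direction of both difference tests. PTPRT-DT, NRIP3, TOX, the chromosome 11 genes and the SNORD115 and SNORD116 sums were chosen after their values were seen. Some genes that meet these rules are not reported here.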

Additional observations from a re-analysis of the deposited data

Results flagged for a closer look

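Of 64 groups of libraries examined (the genes given library by library, the composition measures and the SNORD115 sum), 4 had 1 library apart from the others of its group by Dixon's criterion, where chance flags about 1 in 20. TLL1 had 8.48 CPM in knockdown sample 2, the highest of its group. KCND3 had 22.1 CPM in nontargeting-sgRNA sample 5, the lowest of its group. MALAT1 and NEAT1 together took 0.0314% of the counts of knockdown sample 4, the lowest of its group. The 50 most abundant genes took 12.4% of the counts of nontargeting-sgRNA sample 4, the lowest of its group.

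The knockdown effect differed between soma and neurites (edgeR's quasi-likelihood test of the difference, adjusted p under 0.05) for 28 of the genes examined. Over all genes tested 10.5% were called. Those of the 28 that were named above for the smallest p-values in this same test passed by that choice, so the number 28 is no result in itself. Values are log2 change in soma minus log2 change in neurites, so a negative value means a lower value in soma. Among genes that fell in soma the difference was -1.02 for TARDBP, -0.62 for PTPRT, -0.87 for CDH4, -0.98 for KLHL14, -0.96 for OPRK1, -0.41 for INSR, -0.62 for STMN2, -0.78 for ELAVL3, -0.85 for KCND3, -0.55 for SCN1A and -0.85 for PLXNA2. UNC13A, which also fell in soma, had 0.40. Among genes that rose in soma it was 1.49 for MVP, 0.99 for PREX2, 1.01 for TLL1, 1.181 for PDE9A, 0.45 for NEAT1, 0.74 for TTN, 1.43 for CNTNAP3P2 and 1.01 for ENSG00000290548, and -0.29 for LHX1 and -1.37 for TRAK2. Genes not called in soma had differences of -1.52 (PHF2), -1.11 (BICD2), -2.05 (NKD2), -1.23 (MLYCD), -1.07 (TP53INP2) and 2.48 (VTRNA1-3).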

How the results depend on the processing

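Across DESeq2, limma-voom, filters on low counts, soma libraries alone and leaving out libraries, the counts of called genes stayed within 1.5 times those reported. Leaving out 1 library at a time gave 3237 to 3971 calls in soma, 1638 to 2484 for soma minus neurite and 2394 to 2959 for the difference from hnRNPA1 knockdown, and TARDBP between -2.53 and -2.48. Library sizes in place of TMM gave fewer: in soma 1677 (775 higher, 902 lower), for soma minus neurite 328 (198 and 130), for the difference from hnRNPA1 1293 (710 and 583), and among members of the gene groups 194, against 410. There the median of all genes moved by less than 0.1 and no list median changed sign, and the cause of the lower counts was not tested. Of 186 called genes considered for the text, 39 lost their call under library sizes: UNC13A, GPSM2, EPB41L4A, SYT7, MYO1C, NPLOC4, SORT1, GLE1, MAPT, UBQLN2, SQSTM1, OPTN, HNRNPC, HNRNPUL2, RALY, ELAVL2, ELAVL4, GRIN2B, RELN, NCAN, SHMT2, NEAT1, MALAT1, TRAK2, TTN, ENSG00000290548, NES, SPTBN4, TUBB4A, EIF5B, LSM14A, ASNS, RPL4, SYN1, HNRNPR, ERN1, REST, FAS and NPC2. Leaving out 1 of the 9 soma libraries ended the call of 11 of the 186. These were TRAK2 (log2 change 0.29 to 0.32), ASNS (0.27 to 0.38), RPL4 (0.19 to 0.25), SYN1 (-0.36 to -0.23), HNRNPR (0.18 to 0.20), ERN1 (-0.44 to -0.31), REST (-1.08 to -0.72), FAS (-0.66 to -0.43), HK2 (-2.99 to -1.003), NPC2 (-0.75 to -0.52) and TP53I3 (0.44 to 0.64), and all but TRAK2 were for that reason not described above. With no filter on low counts NPLOC4, HNRNPR, REST and FAS lost their call. Genes not called in soma changed sign in such fits: STMN1 (-0.051 to 0.016), SNHG14 (-0.076 to 0.10), PHF2 (-0.0017 to 0.049), NKD2 (-0.0024 to 0.10) and TP53INP2 (-0.053 to 0.045).

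Sample numbers 1, 2 and 4 occur in both groups, but the labels do not say that a number marks a shared culture. Deviations from the group mean correlated at 0.12, 0.084 and 0.083 over all genes (0.136, 0.254 and 0.146 over 11523 genes above 5 CPM), and each of these knockdown libraries correlated best with its own number over all genes, a hint from the data only. With the replicate block 4033 genes were called (1782 higher, 2251 lower), and HNRNPC, RPL4, HNRNPR, REST, HK2 and NPC2 lost their call. A block over all libraries of the experiment, chosen after seeing the data, gave 3150 calls (1548 and 1602) and PHF2 at -0.014, and TRAK2, ASNS, RPL4, ERN1, HK2 and NPC2 lost their call. For soma minus neurite, a replicate block that pairs the fractions of a sample, also chosen after seeing the data, gave 2212 calls (835 higher, 1377 lower). Of these, 1824 were among those reported, which is 79.1% of the reported calls. The block ended the call of none of the 15 named genes. Several of the 15 were named for small p-values in the same test, so their kept calls say little about other genes. Permutation tests of the composition measures without 1 library at a time left 0 of 9 past the adjusted threshold. With fewer libraries the smallest possible p is larger still, so these tests could hardly have passed any measure and show little on stability.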

Other observations

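Calls in further gene groups, listed from general knowledge, are given for knockdown soma over nontargeting-sgRNA soma (edgeR's quasi-likelihood test, calls at adjusted p under 0.05, log2 change ± standard error). Of 39 genes of neurofilaments and the axonal cytoskeleton none was called higher and 5 were lower (12.8%), among them the spectrin SPTBN4 (-0.44 ± 0.081) and the tubulin TUBB4A (-0.42 ± 0.087), with a median of -0.079. Of 41 motor and adaptor genes 2 rose (4.88%), MYO6 (0.52 ± 0.055) among them, and 5 fell (12.2%), among them KIF26B (-0.50 ± 0.078). Of 24 glycolysis genes 4 fell (16.7%), PFKP among them, and 1 rose (4.17%). Of 48 translation factor genes 8 rose (16.7%), among them EIF4EBP1 (0.46 ± 0.082) and EIF5B (0.31 ± 0.070), and 3 fell (6.25%), with a median of 0.063. The shares over all genes were 9.41% higher and 9.53% lower.

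Of 58 autophagy and lysosome genes 9 rose (15.5%, against 9.41% of all genes), GRN among them, and 8 fell (13.8%, against 9.53%), ATG4B among them. Of 26 p53 targets 5 rose (19.2%), among them the death receptor TNFRSF10B (0.50 ± 0.075), and 5 fell (19.2%). Of 23 Notch pathway genes 5 rose (21.7%), NOTCH1 (0.65 ± 0.17) among them, and 4 fell (17.4%). Of 33 transcription factors of neuronal identity 7 rose (21.2%), among them NEUROD1 and NHLH1 (0.52 ± 0.068), and 3 fell (9.09%). Of 47 genes of the nuclear pore and nuclear transport 5 rose (10.6%), among them XPO7 (0.47 ± 0.053), and 6 fell (12.8%), of which RANBP1 is described above. Of 32 RNA granule and transport genes 6 rose (18.8%), among them LSM14A (0.40 ± 0.052), and 2 fell (6.25%). Of 25 cholesterol synthesis genes 1 rose (4%) and 2 fell (8%), and of 17 heat shock genes 1 rose (5.88%) and 2 fell (11.8%).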
